A study of Spodoptera frugiperda with 18 samples.

Results

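The miRNAs miR-2755 and miR-2766 were followed through development in the fall armyworm, Spodoptera frugiperda, a moth and a pest of maize and other crops in its caterpillar stage. They were chosen by name, as the rows of miR-2755 and miR-2766 in the table of counts, and 8 of its 741 rows carry these names, 4 for each family. These are sfr-miR-2755-3p, sfr-miR-2755-5p, miR-2755-y and miR-2755-z, and sfr-miR-2766-3p, sfr-miR-2766-5p, miR-2766-x and miR-2766-y. Small RNA was sequenced in 18 libraries, 1 for each stage, sex and age. One library is of eggs, 6 are of larvae (instars 1 to 6) and one is of prepupae. Pupae were taken on days 1, 4 and 7 and adults on days 1 and 4, with a female and a male library at each age. The labels give no strain, diet, tissue or pool size, and they do not state that libraries of a stage came from separate cultures, so a p-value here measures no more than the spread between these libraries, which may be technical. The 6 larval, 6 pupal and 4 adult libraries stood in as replicates of a stage, and each SD therefore mixes ages and, in pupae and adults, sexes.

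A miRNA gene yields a hairpin from which an enzyme cuts a 5p and a 3p arm, and usually one of them is kept in the silencing complex. The complex is led to target mRNAs mainly by the seed, the stretch of bases just after the first one at the 5′ end, so miRNAs with equal seeds are grouped as candidates for overlapping targets. Families with numbers in this range were first named in the silkworm Bombyx mori. In the cotton bollworm Helicoverpa armigera, miR-2766 and miR-14 have been described as regulators of tyrosine hydroxylase, an enzyme of cuticle tanning. No role of miR-2755 is stated here.

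The listed sequences are shown because they give both the forms of each arm and the seeds shared with other miRNAs, and capitals mark the seed, bases 2 to 8 from the 5′ end, except in the last one.
sfr-miR-2755-3p: cACCCTGTcagaccatacttgtt
miR-2755-y: cACCCTGTcagaccatacttgttaa
miR-2755-z: cACCCTGTcagaccatacttgttct
sfr-miR-2755-5p: cAAGGTGGcctagcagcgtgtt
sfr-miR-2766-3p: tCAGTCTTgtcgaatggtgggt
miR-2766-y: tCAGTCTTgtcgaatggtgggttt
sfr-miR-2766-5p: cCATCCTTcgtctcgactggcg
miR-2766-x: cCATCCTTcgtcttgactggct
sfr-miR-10-5p: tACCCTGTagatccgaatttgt
miR-993-x: tACCCTGTagatccgggctttt
sfr-miR-14-3p: tCAGTCTTtttctctctcctat
sfr-miR-2756-5p: ACCCTGTagctgctaaggggcg
The rows miR-2755-y and miR-2755-z equal sfr-miR-2755-3p followed by AA and CT at the 3′ end, and miR-2766-y equals sfr-miR-2766-3p followed by TT. No hairpin or genome sequence was used, so the source of these extra bases was not tested. The row miR-2766-x differs from sfr-miR-2766-5p by C14T and G22T, counted from 1 at the 5′ end of sfr-miR-2766-5p. The seed of sfr-miR-2755-3p is also that of sfr-miR-10-5p, a miRNA encoded among the Hox genes of insects, and of miR-993-x. The seed of sfr-miR-2766-3p is also that of sfr-miR-14-3p, a miRNA of fat metabolism and ecdysone signalling in flies. The pairs part after base 8. With the seed bases included, sfr-miR-2755-3p and sfr-miR-10-5p had equal bases at 14 of 22 positions, and sfr-miR-2766-3p and sfr-miR-14-3p at 11 of 22. In sfr-miR-2756-5p, another family with a silkworm number, the letters of the miR-2755-3p seed stand 1 base nearer the 5′ end, and there the capitals mark bases 1 to 7. The listed forms of an arm are near copies of each other, so the authors' counting could have split reads between them, and their single values are uncertain in that respect.

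The shallowest library, instar 3, held 233304 counts and the deepest, the prepupa, 4893525, so that 3 counts made 12.9 CPM (counts scaled to a column total of 1e+06) in instar 3 and 0.613 CPM in the prepupa. The egg library stood apart, with 29.6% of its counts in predicted miRNAs without a family name against 2.04% to 6.85% in the other 17 libraries, and 24.1% of its total was dropped when rows of equal sequence and equal counts were merged into 1. miR-989-z, an ovary miRNA in insects, was read at 4564 and 19050.3 CPM in adult females and at 1.44 and 1.01 CPM in adult males, and let-7-x, a miRNA that rises at metamorphosis in flies, averaged 26311 ± 5138 CPM in pupae and 2294 ± 2445 CPM in larvae (SD, n = 6 each). Intervals given for single libraries are exact 95% intervals and cover counting error only.

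sfr-miR-2755-3p was the most abundant of the 8 rows in all 18 libraries, ranking between 7 and 28 among the 660 distinct rows. It had 5979.6 CPM in the egg (interval 5735 to 6232), its lowest value. The larvae held 32364, 28105, 20218, 20019, 17200.3 and 21344 CPM in instars 1 to 6, a mean of 23208 ± 5770.4 CPM (SD, n = 6). The prepupa had 13409 CPM (interval 13307 to 13512). The female pupae of days 1, 4 and 7 had 13011, 13690.2 and 16820.5 CPM and the male pupae 15782, 14681 and 15471 CPM, a mean of 14909 ± 1405 CPM (SD, n = 6). The female adults of days 1 and 4 had 21077 and 19587 CPM and the male adults 26844 and 26644 CPM, a mean of 23538 ± 3752 CPM (SD, n = 4). In these units every pupal value lay below every larval and every adult value, while larvae and adults overlapped. The egg value depends on what its total includes: it was 7874 CPM over merged rows, 8597 CPM with TMM factors and 11181 CPM over named rows alone. On each of these scales, and over column totals, the egg lay under the lowest value of the other 17 libraries. That lowest value was 13011 CPM for column totals, 13238 CPM over merged rows, 13499 CPM with TMM factors and 13644 CPM over named rows.

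sfr-miR-2766-3p ranked between 9 and 32 and was lower than sfr-miR-2755-3p in every library. The egg had 5706 CPM (interval 5467 to 5952). Instar 1 had the highest value of the series, 26364 CPM, and instars 2 to 6 had 11001, 12524, 7944, 5274 and 11597 CPM, for a larval mean of 12451 ± 7324 CPM (SD, n = 6). The prepupa had 6987 CPM. The female pupae of days 1, 4 and 7 had 7599, 3062 and 7009 CPM and the male pupae 5509, 3694 and 7557 CPM, a mean of 5738 ± 1989 CPM (SD, n = 6). Both day 4 libraries were the lowest of their sex. The female adults of days 1 and 4 had 7304 and 11677 CPM and the male adults 5378 and 8406 CPM, a mean of 8191 ± 2639 CPM (SD, n = 4). Unlike sfr-miR-2755-3p, the egg value lay inside the larval, pupal and adult ranges. Over named rows alone it was 10668 CPM, inside the larval and adult ranges on that scale but above every pupa (at most 7969 CPM). The ratio of sfr-miR-2766-3p to sfr-miR-2755-3p counts was 0.954 in the egg and between 0.200 in the day 1 male adult and 0.815 in instar 1 elsewhere.

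**Figure D1:**
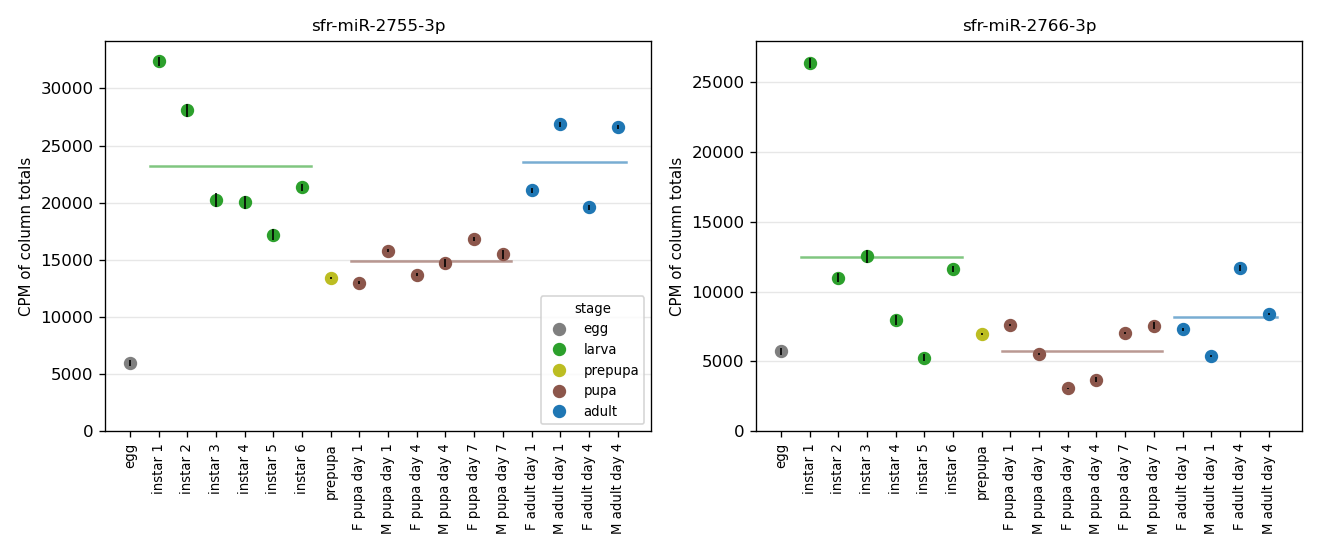
CPM of column totals (y axis) of sfr-miR-2755-3p on the left and sfr-miR-2766-3p on the right in each of the 18 libraries (x axis, F female, M male); points are libraries coloured by stage, black bars are exact Poisson intervals and horizontal lines are means over the libraries of a stage. sfr-miR-2755-3p spans 5979.6 to 32364 CPM with the egg lowest and all pupae at 16820.5 CPM or less, while sfr-miR-2766-3p peaks at 26364 CPM in instar 1.

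The 5p arms were the minor arms. sfr-miR-2766-5p had 39.9 CPM in the egg (15 counts), 846 ± 382 CPM in larvae (SD, n = 6), 715 CPM in the prepupa, 358 ± 133 CPM in pupae (SD, n = 6) and 901 ± 325 CPM in adults (SD, n = 4). Its highest value was 1248 CPM in instar 4, and the egg value was the lowest. A predicted miRNA without a family name is a near copy of sfr-miR-2766-5p, and its counts are not included here. miR-2766-x, the variant of that arm, had 2.66 CPM (1 count) in the egg and at most 107 CPM, in the day 4 male adult. sfr-miR-2755-5p held 58 counts over all 18 libraries, with at most 12 in 1 library and 0 in 4 libraries. With so few counts, no order of stages can be read from it, and taking 3 counts as the limit that a count of 0 allows, instar 3, 1 of those 4 libraries, could have held up to 12.9 CPM.

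The longer 3p forms were also minor. miR-2755-y had its highest level in the egg, 1335 CPM (502 counts), with 180.5 ± 64.9 CPM in larvae (SD, n = 6), 81.5 CPM in the prepupa, 70.2 ± 20.99 CPM in pupae (SD, n = 6) and 274 ± 138 CPM in adults (SD, n = 4). miR-2766-y had 329.8 CPM in the egg (124 counts), 189 ± 183 CPM in larvae with 551 CPM in instar 1 (SD, n = 6), 60.1 CPM in the prepupa, 52.7 ± 19.6 CPM in pupae (SD, n = 6) and 90.7 ± 30.3 CPM in adults (SD, n = 4). miR-2755-z held 44 counts in all, was at 0 in 8 libraries and had at most 14 counts in 1 library. It and sfr-miR-2755-5p were not tested, since only rows with a mean of at least 10 counts were, and the other 6 rows passed that filter in every comparison.

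Pupae were compared with larvae by edgeR's quasi-likelihood test, with TMM factors and Benjamini-Hochberg adjustment over 320 rows. Of the 6 rows, 3 fell and none rose at an adjusted p of 0.05, where 37.5% of all rows tested were called and 18.1% were called lower. miR-2755-y fell to 54.5, 58.0 and 64.8 CPM in female pupae and 63.6, 111.8 and 68.4 CPM in male pupae of days 1, 4 and 7, against 280.3, 240.3, 167, 137, 120.03 and 139 CPM in instars 1 to 6 (log2 -1.01, SE 0.29, edgeR adjusted p = 0.0153). The highest pupa, the day 4 male, lay under the lowest larva, but the call was lost with no filter on low counts (-0.84, edgeR adjusted p = 0.0767). miR-2766-y fell by 1.44 on the log2 scale (SE 0.47, edgeR adjusted p = 0.0249). Its pupae, between 32.9 and 84.9 CPM, overlapped with the larvae, between 54.6 and 551 CPM, and without instar 1 the change was -0.88 and the edgeR adjusted p 0.0796. The call was also lost without the day 1 male pupa (edgeR adjusted p = 0.0508), without the day 4 female pupa (0.0540) and with no filter (0.0600). sfr-miR-2766-5p, at 226 to 514 CPM in pupae and 322 to 1248 CPM in larvae, was called at the edge of the threshold (log2 -0.83, SE 0.32, edgeR adjusted p = 0.0492). The call was lost when any of 12 of the 16 libraries was left out, with adjusted p-values up to 0.129.

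For the main 3p arms the call depended on how libraries were scaled. With TMM factors, sfr-miR-2755-3p had a log2 change of -0.31 in pupae against larvae (SE 0.20, edgeR adjusted p = 0.222), and sfr-miR-2766-3p of -0.75 (SE 0.35, edgeR adjusted p = 0.0951). With library totals alone, as in the CPM above, the changes were -0.63 (edgeR adjusted p = 0.0106) and -1.11 (edgeR adjusted p = 0.0253), and 38.1% of all rows were called. That scaling moved the median of all 320 rows to -0.31, against -0.00771 with TMM factors. TMM factors computed over all 18 libraries, which are not those of the fit, were above 1 in instars 1 to 5. With them sfr-miR-2755-3p had 17756 ± 3856 CPM in pupae and 18952 ± 4767 CPM in larvae (SD, n = 6 each), with overlapping values.

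Adults were compared with pupae across eclosion. Of the 6 rows, 2 rose and none fell, where 23.4% of all rows were called and 11.2% were called higher. miR-2755-y rose to 182.7 and 475 CPM in female adults and 189 and 248 CPM in male adults of days 1 and 4, against 54.5 to 111.8 CPM in the 6 pupae, without overlap (log2 1.79, SE 0.32, edgeR adjusted p = 0.00143). This was the one call of the 8 rows that held under each of the 22 alternatives run for it. sfr-miR-2766-5p rose to 1059 and 1231 CPM in female adults and 833 and 479.5 CPM in male adults, against 226 to 514 CPM in pupae (log2 1.19, SE 0.35, edgeR adjusted p = 0.0211). The day 4 male adult overlapped with the pupae, and the edgeR adjusted p was 0.168 without the day 4 female adult and between 0.0518 and 0.0626 without instar 2, the day 1 male pupa, the day 4 female pupa or the day 1 female adult. sfr-miR-2755-3p had a log2 change of 0.54 (SE 0.22, edgeR adjusted p = 0.0899), which passed with library totals alone (0.68, edgeR adjusted p = 0.0190, with 24.7% of all rows called) and with the DESeq2 Wald test (0.61, adjusted p = 0.0238). sfr-miR-2766-3p had a log2 change of 0.34 (SE 0.38, edgeR adjusted p = 0.562) and was not called under any alternative.

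Between adults and larvae, none of the 6 rows was called by edgeR, where 33.1% of all rows were and 140 had an unadjusted p under 0.05. The log2 change was 0.23 (SE 0.22, edgeR adjusted p = 0.452) for sfr-miR-2755-3p and -0.41 (SE 0.39, edgeR adjusted p = 0.442) for sfr-miR-2766-3p. Single libraries moved both, to 0.0904 for sfr-miR-2755-3p without the day 1 male adult and to -0.14 for sfr-miR-2766-3p without instar 1. miR-2755-y had 0.78 (SE 0.32, edgeR adjusted p = 0.0744), and the DESeq2 Wald test called it (0.86, adjusted p = 0.0205). A missed threshold in these tests does not show equal levels.

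**Figure D2:**
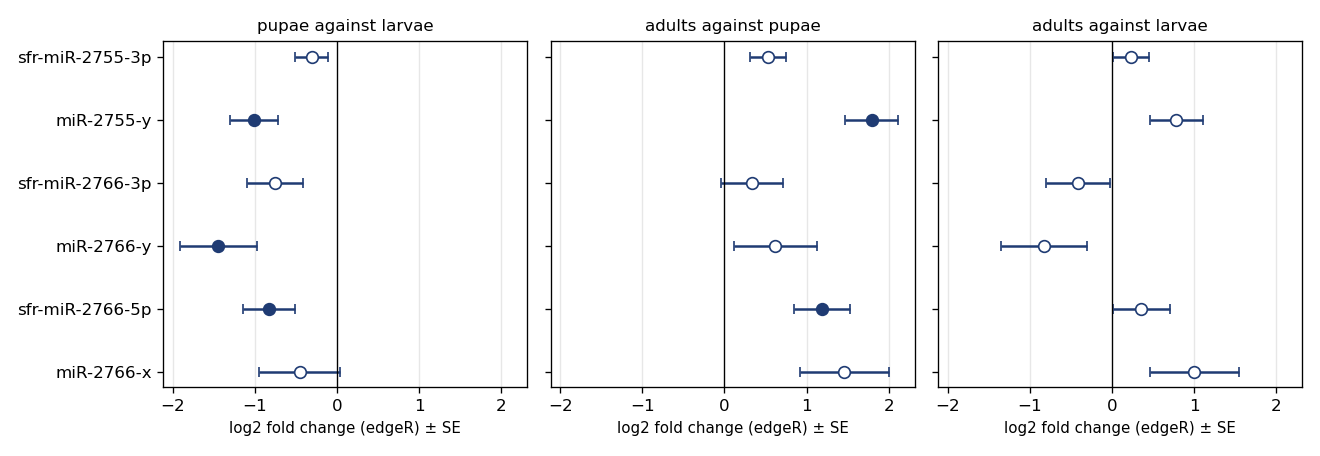
Log2 fold changes from edgeR with TMM factors (x axis, bars show 1 approximate SE) of the 6 tested rows of miR-2755 and miR-2766 (y axis) in pupae against larvae, adults against pupae and adults against larvae; filled points have an adjusted p under 0.05. The called rows are miR-2755-y (-1.01), miR-2766-y (-1.44) and sfr-miR-2766-5p (-0.83) in pupae against larvae, and miR-2755-y (1.79) and sfr-miR-2766-5p (1.19) in adults against pupae.

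Females and males were compared over 5 ages with age as a block. None of the 6 rows was called by edgeR, where 0.581% of 344 rows were (42 had an unadjusted p under 0.05) and the DESeq2 Wald test called none of the 6 either. sfr-miR-2766-3p had a log2 difference of 0.44 (SE 0.18, edgeR adjusted p = 0.360), with higher CPM in females at 3 of 5 ages. sfr-miR-2755-3p had a log2 difference of 0.03 (SE 0.25, edgeR adjusted p = 0.958), whose sign turned with other scalings. Its adult females, at 21077 and 19587 CPM, lay below the adult males, at 26844 and 26644 CPM, while in pupae the order was mixed. Whether the sex difference changed in adults against pupae was tested too, and there 3.20% of all rows and none of the 6 were called by edgeR (63 of 344 had an unadjusted p under 0.05). For sfr-miR-2755-3p that difference was -0.97 (SE 0.31, edgeR adjusted p = 0.158), towards males in adults, and the DESeq2 Wald test called it at -0.59 (adjusted p = 0.0390). miR-2766-x had -2.55 (SE 0.68, edgeR adjusted p = 0.112), called by the DESeq2 Wald test at -2.17 (adjusted p = 0.0301). Its female pupae of days 1, 4 and 7 had 21.5, 26.6 and 50.9 CPM and the male pupae 12.8, 8.28 and 14.1 CPM. The female adults had 57.4 and 54.0 CPM and the male adults 62.7 and 107 CPM, so that females were higher at each pupal age and males at each adult age. The male pupae of days 4 and 7 held only 4 and 6 counts (intervals 2.26 to 21.2 and 5.19 to 30.8 CPM). On adult day 1 the intervals of the female (47.7 to 68.4 CPM) and the male (53.7 to 72.7 CPM) overlapped.

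Each age was also set against the one before, with its female and its male library as replicates, and none of the 6 rows was called by edgeR in any of the 4 steps. The share of all 344 rows called was 5.52% for pupal day 4 against day 1, 0% for pupal day 7 against day 4, 3.78% for adult day 1 against pupal day 7 and 0.291% for adult day 4 against day 1, with 87, 56, 83 and 17 rows at an unadjusted p under 0.05. sfr-miR-2766-3p had its lowest pupal values on day 4 in both sexes. Day 4 held 3062 CPM in the female and 3694 CPM in the male, against 7599 and 5509 CPM on day 1 (log2 -0.84, SE 0.28, edgeR adjusted p = 0.118). Day 7 held 7009 CPM in the female and 7557 CPM in the male, so the log2 change of day 7 against day 4 was 1.13 (SE 0.28, edgeR adjusted p = 0.160), and the DESeq2 Wald test called it (1.25, adjusted p = 0.000924). edgeR called both steps without the day 4 male adult, at adjusted p = 0.0375 and 0.0359. miR-2755-y had 182.7 CPM in the female and 189 CPM in the male adult of day 1, against 64.8 and 68.4 CPM on pupal day 7 (log2 1.39, SE 0.39, edgeR adjusted p = 0.0803), and the DESeq2 Wald test called that step (1.25, adjusted p = 0.0262).

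Along the 6 larval instars, with instar number as a linear term, none of the 6 rows was called by edgeR, where 29.1% of 234 rows were and 107 had an unadjusted p under 0.05. The slope was -0.09 log2 units per instar for sfr-miR-2755-3p (SE 0.07, edgeR adjusted p = 0.355) and -0.21 for sfr-miR-2766-3p (SE 0.13, edgeR adjusted p = 0.236). Both slopes rested on the end libraries. That of sfr-miR-2755-3p was -0.0129 without instar 1 and -0.20 (edgeR adjusted p = 0.106) without instar 6. That of sfr-miR-2766-3p was 0.00930 without instar 1 and -0.50 (edgeR adjusted p = 0.0208) without instar 6, where sfr-miR-2766-3p stood at 11597 CPM against 5274 CPM in instar 5.

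Ratios of counts within a library need no scaling between libraries. They were compared between stages by an exact two-sided permutation test over libraries, in 24 tests on 8 ratios, and none passed an adjusted p of 0.05. The smallest p these designs allow is 0.00216 for 6 against 6 libraries and 0.00952 for 4 against 6. The clearest contrast was the egg, a single library that enters no test. There miR-2755-y made 22.3 counts per 100 of sfr-miR-2755-3p (interval 20.2 to 24.6), against 0.385 to 2.43 per 100 in the other 17 libraries. The day 4 female adult held the highest of those 17 values. By stage the ratio was 0.649 to 0.866 per 100 in larvae, 0.608 in the prepupa, 0.385 to 0.762 in pupae and 0.703 to 2.43 in adults. Pupae lay below larvae by 0.73 on the log2 scale (exact permutation p = 0.00866, adjusted p = 0.0623), with 5 of 6 pupae under every larva. Adults lay above pupae by 1.24 on the log2 scale (exact permutation p = 0.0190, adjusted p = 0.0762).

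Relative to its shorter form, the TT-ended form was also highest in the egg. miR-2766-y made 5.78 counts per 100 of sfr-miR-2766-3p in the egg (interval 4.78 to 6.93), against 0.521 to 2.09 per 100 elsewhere, with instar 1 the highest of those. No pair of stages passed the test, and the log2 difference was -0.47 in pupae against larvae (exact permutation p = 0.123, adjusted p = 0.269). miR-2755-z had 0 counts in the egg, which by the same limit of 3 counts allows up to 0.133 counts per 100. The egg was not high in every longer form of the table. Among rows outside both families that equal another row plus 1 to 3 bases at the 3′ end and whose shorter form had at least 100 egg counts, the egg held the highest ratio in 9 of the 25 pairs with a ratio in all 18 libraries. For extra AA this was 3 of 4 pairs, miR-2765-z, miR-92-y and miR-11-y with 326, 25.0 and 1.45 counts per 100, and for other extra bases 6 of 21. This comparison was chosen after the values of the miR-2755 rows had been seen.

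**Figure D3:**
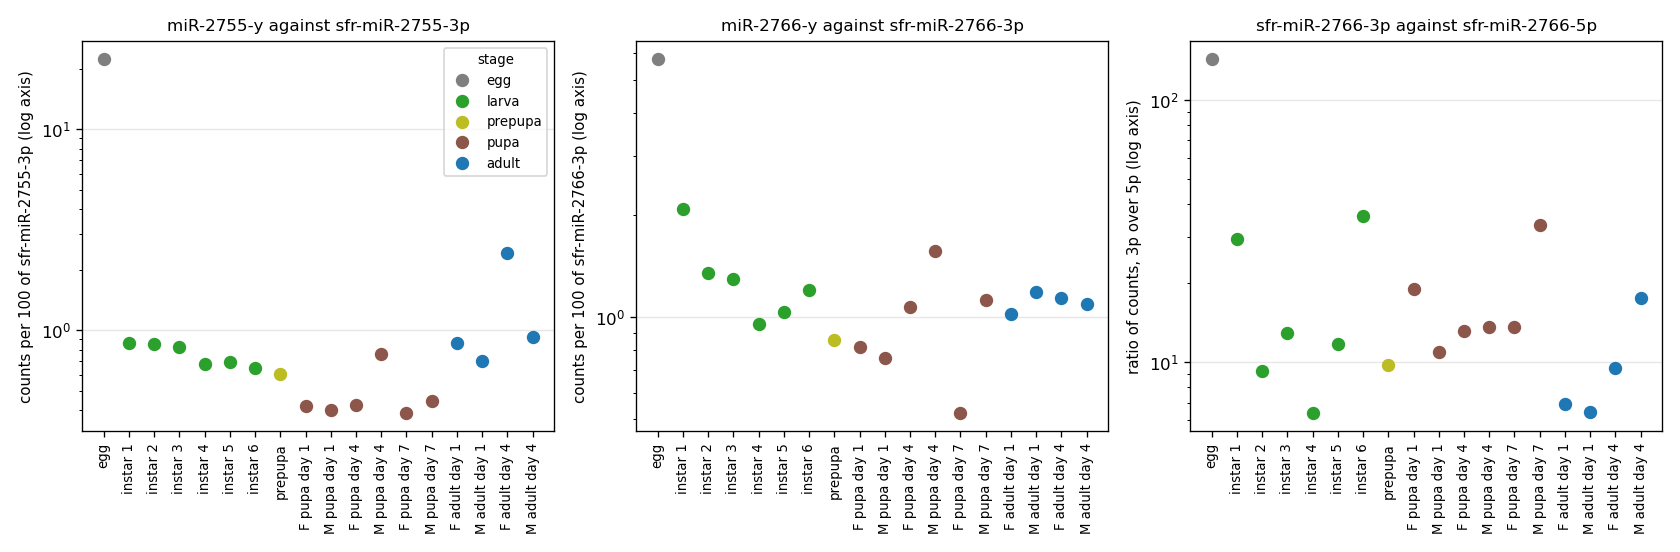
Counts of miR-2755-y per 100 of sfr-miR-2755-3p (left), of miR-2766-y per 100 of sfr-miR-2766-3p (middle) and the ratio of sfr-miR-2766-3p to sfr-miR-2766-5p counts (right) in the 18 libraries; y axes are logarithmic and points are libraries coloured by stage. The egg is the highest library in each panel, at 22.3, 5.78 and 143.

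The arm ratio of miR-2766 also set the egg apart. This ratio leaves out miR-2766-x and the predicted near copy of the 5p arm, and a ratio with their counts was not tested. There were 143 counts of sfr-miR-2766-3p for each of sfr-miR-2766-5p in the egg (2145 against 15 counts, interval 86.5 to 256), against 6.36 in instar 4 to 36.1 in instar 6 among the other 17 libraries. The ratio was 6.36 to 36.1 in larvae, 9.77 in the prepupa, 10.9 to 33.4 in pupae and 6.45 to 17.5 in adults. Adults lay below pupae by 0.79 on the log2 scale (exact permutation p = 0.0762, adjusted p = 0.203), which did not pass the test. For miR-2755 the 5p arm was too scarce for such a ratio. Counts of miR-2766-x per 100 of sfr-miR-2766-5p ran from 1.11 in the prepupa to 22.4 in the day 4 male adult, and no pair of stages passed the test (exact permutation adjusted p-values of 0.457 to 0.763).

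In the group of miRNAs that share the seed ACCCTGT, miR-2755 was the smaller partner of miR-10 throughout, and its share was lowest in the egg and highest in adults. The group has 6 rows, in which sfr-miR-10-5p held 27534 to 202299 CPM, miR-993-x at most 773 CPM and a predicted miRNA without a family name at most 7.98 CPM. The 3 miR-2755 rows made up 6.99% of the group's counts in the egg (interval 6.74% to 7.24%), 21.0 ± 4.74% in larvae (SD, n = 6), 19.1% in the prepupa, 28.5 ± 3.78% in pupae (SD, n = 6) and 38.8 ± 3.52% in adults (SD, n = 4). Within the larvae the share was 13.9% in instar 1, 24.1%, 20.3%, 20.2% and 19.6% in instars 2 to 5, and 28.0% in instar 6. The 4 adults, at 34.5% to 41.8%, lay above every pupa, at 24.1% to 32.9%. sfr-miR-10-5p has near copies, miR-10-x and miR-10-z, and with their counts added to the group the share was 5.33% in the egg and 37.8 ± 4.79% in adults (SD, n = 4). The adults, at 31.4% to 41.6%, then overlapped with the pupae, at 24.0% to 32.7%.

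As a ratio to sfr-miR-10-5p alone, sfr-miR-2755-3p stood at 0.0617 in the egg, 0.160 to 0.387 in larvae, 0.237 in the prepupa, 0.318 to 0.497 in pupae and 0.518 to 0.717 in adults. Adults exceeded pupae by 0.65 on the log2 scale (exact permutation p = 0.00952, adjusted p = 0.0623) and larvae by 1.28 (exact permutation p = 0.00952, adjusted p = 0.0623), in both cases without overlap and at the smallest p the design allows. Pupae exceeded larvae by 0.62 on the log2 scale, with overlap (exact permutation p = 0.0130, adjusted p = 0.0623). The ratio holds both partners, and sfr-miR-10-5p had 96889 CPM in the egg, 55179 to 202299 CPM in larvae, 56639.5 CPM in the prepupa, 27534 to 44419 CPM in pupae and 35562 to 37817 CPM in adults. This ratio was chosen after the sequences had been seen.

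In the group that shares the seed CAGTCTT, miR-2766 was the larger partner of miR-14 in all libraries but 1, the day 1 male adult. The other row with this seed, miR-14-z, held 13 counts over all libraries. The egg held 2145 counts of sfr-miR-2766-3p and 6 of sfr-miR-14-3p, a ratio of 357.5 (interval 164 to 975), against 0.957 in the day 1 male adult to 6.48 in the day 7 male pupa among the other libraries. miR-2766 thus made up 99.7% of the group's counts in the egg, 71.3 ± 10.5% in larvae (SD, n = 6), 66.3% in the prepupa, 73.8 ± 9.47% in pupae (SD, n = 6) and 57.2 ± 9.33% in adults (SD, n = 4). The summed level of the group was 6051 CPM in the egg, 17882 ± 9893 CPM in larvae (SD, n = 6), 10631 CPM in the prepupa, 7960.1 ± 2843 CPM in pupae (SD, n = 6) and 14289.6 ± 2941 CPM in adults (SD, n = 4). The ratio was lower in adults than in pupae by 1.13 on the log2 scale (exact permutation p = 0.0381, adjusted p = 0.131). Over the same step sfr-miR-14-3p rose by a log2 change of 1.39 (SE 0.44, edgeR adjusted p = 0.0305) while sfr-miR-2766-3p was not called.

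**Figure D4:**
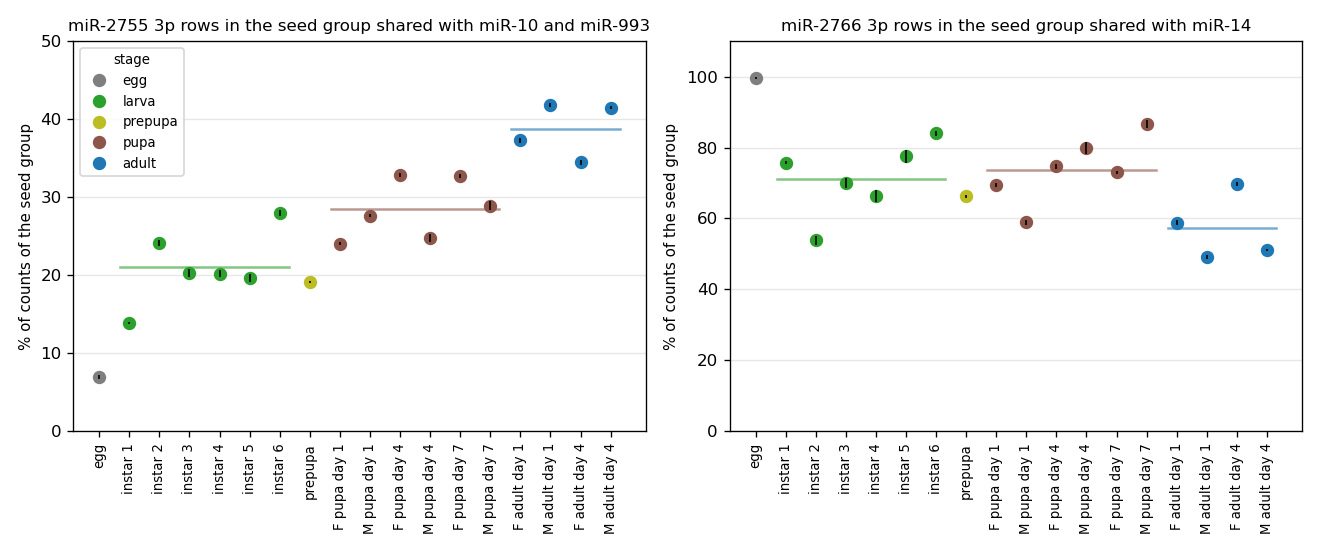
Percent of the counts of a seed group (y axis) held by the miR-2755 3p rows, in the group with miR-10 and miR-993 (left), and by the miR-2766 3p rows, in the group with miR-14 (right), in the 18 libraries; points are libraries coloured by stage, black bars are exact binomial intervals and horizontal lines are stage means. The share of miR-2755 is 6.99% in the egg and 34.5% to 41.8% in adults, and that of miR-2766 is 99.7% in the egg and 49.2% to 69.7% in adults.

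sfr-miR-2755-3p and sfr-miR-2766-3p followed each other loosely, with a Spearman rho of 0.554 over the 18 libraries and 0.559 without the egg, from CPM that share a library's total. Among 179 rows with a mean of at least 100 CPM that are neither of these families nor near copies, those most like sfr-miR-2755-3p were bantam-y (rho 0.864), which promotes growth in flies, miR-927-x (0.829), miR-133-z (0.808), a muscle miRNA, miR-2796-y (0.806) and sfr-miR-14-3p (0.806). Those most like sfr-miR-2766-3p were miR-2796-y (0.725), miR-927-x (0.697), the 5p arm sfr-miR-274-5p (0.684), miR-281-x (0.682) and miR-281-y (0.647). All 10 values are over the 18 libraries. By Pearson's r of log2(CPM + 1), 3 of the 5 rows stayed among the 5 most alike for each miRNA.

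Rows of other families with silkworm numbers were tested in the same fits. Of 17 such rows 13 were tested in the stage fit, and in pupae against larvae 6 rose and 1 fell (19.4% of all rows were called higher), with a median log2 change of 2.04 against -0.00771 over all rows. Among those that rose, sfr-miR-2765-5p, sfr-miR-2765-3p and miR-2765-x are rows of a single family, and miR-2765-z was tested too. These rows are not independent, so neither the counts nor the median weighs each family alike. sfr-miR-2765-5p rose by a log2 change of 5.69 (edgeR adjusted p = 0.00303) and miR-2763-z by 2.30 (edgeR adjusted p = 0.0253), while miR-2796-y fell by 2.61 on the log2 scale (edgeR adjusted p = 0.0129). In adults against pupae 1 rose, miR-2765-z (log2 4.42, edgeR adjusted p = 0.0421). It had 35.2 and 1177 CPM in the female adults of days 1 and 4 and 0.360 and 3.52 CPM in the male adults, against 1.41 to 35.2 CPM in pupae, so that only the day 4 female adult stood above every pupa. In the same comparison 3 fell (12.2% of all rows were called lower), among them miR-2779-z (log2 -1.32, edgeR adjusted p = 0.0296). In adults against larvae 3 rose, among them miR-2765-z, which had 0 or 1 count in each larval library, and 1 fell, so 4 of 13 were called, where 33.1% of all rows were. Of the 14 tested by sex and age, none was called between females and males. The difference of females from males was higher in adults than in pupae for 3 (3.20% of all rows were called), which are forms of a single arm, sfr-miR-2765-5p, miR-2765-x and miR-2765-z (8.04 for miR-2765-z, edgeR adjusted p = 0.00271). One, miR-2788-y, was higher on pupal day 4 than on day 1 (5.52% of all rows were called). Along the instars, where 29.1% of all rows were called, 1 of 9 rose, sfr-miR-2765-5p with a slope of 0.96 per instar (edgeR adjusted p = 0.0166), and 2 fell, miR-2767-z and miR-2796-y with slopes of -0.37 (edgeR adjusted p = 0.0374) and -0.95 (edgeR adjusted p = 0.0194). Of 5 rows of miR-14, 3 were tested between stages and none was called in pupae against larvae or adults against larvae, while sfr-miR-14-3p rose in adults against pupae as given above. Along the instars both tested rows of miR-14 fell, with slopes of -0.44 for sfr-miR-14-3p (edgeR adjusted p = 0.0146) and -0.48 for sfr-miR-14-5p (edgeR adjusted p = 0.0401).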

How the data were processed

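Small RNA of 18 libraries was prepared from total RNA extracted with Trizol, using TruSeq Small RNA kits, and sequenced on a HiSeq instrument. This is per the labels' protocols, whose library number is smaller than that of the series. The deposited table holds the authors' raw counts, 1 column per library, and names each row and its sequence. Which aligner, miRNA caller or genome build was used is not given in the sources used here. Sequences are those of the deposited table.

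Of 741 rows, those with equal sequence and equal counts were merged, leaving 660. Groups came from the labels. CPM were computed from the deposited counts over column totals, as levels. Tests were edgeR 4.0.16's quasi-likelihood test (R 4.3.3, robust, TMM factors computed within each fit) on rows averaging 10 counts or more over a fit's libraries, with Benjamini-Hochberg adjustment over all rows tested and a threshold of 0.05. For CPM with TMM factors, the factors came from all merged rows and all 18 libraries and ran from 0.640 to 1.47. A single fit to larvae, pupae and adults served all stage comparisons. Sexes and ages were compared over pupae and adults with terms for age and sex, and larvae by instar number. Each SE is the log2 change divided by the square root of F, and is approximate. Ratios within a library used exact permutation tests, of which 5 ratios were planned and 3 were added after the sequences had been seen, with 1 count added to both sides where a 0 occurs. Sequences aligned over 18 bases or more with no more than 2 differences are called near copies. The edgeR test ran on simulated counts for pupae against larvae, females against males, the sex difference in adults against pupae and the larval trend. Other edgeR comparisons were not simulated, and the outcome of the simulation is not given here. Alternatives were DESeq2's size factors and Wald test (DESeq2 1.42.0), library totals, no filter, unmerged rows, summed 3p rows and leaving out libraries. Pairs of females and males of 1 age share that age by their labels, which is the block used for sex.

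The rows named are all rows of both families, the 5 rows most like each main 3p arm, rows with an equal seed and, from the lists, called rows that averaged 100 CPM or more. Rows named outside this rule, after their values or sequences had been seen, are sfr-miR-2756-5p, miR-989-z, let-7-x, miR-10-x, miR-10-z, miR-92-y, miR-11-y, sfr-miR-2765-3p, miR-2765-x and miR-2788-y. The lists were families numbered 2733 to 2860 and miR-14. The members and lists were chosen with earlier results of these data known. Other tools were scipy 1.17.1, pandas 2.3.3, numpy 2.4.6 and matplotlib 3.10.9 in Python 3.11.15.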

Additional observations from a re-analysis of the deposited data

Results flagged for a closer look

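Dixon's test marked 9 of 54 stage groups of members or ratios as holding a library far from the others. Chance marks about 1 in 20 where groups are independent and normally distributed. These groups share counts, since levels and ratios of the same rows enter, so 9 of 54 cannot be read as an excess. In larvae, instar 1 stood apart with 26364 CPM of sfr-miR-2766-3p, 551 CPM of miR-2766-y and a ratio of miR-2766-y to sfr-miR-2766-3p of 0.0209, and instar 2 with a ratio of miR-2755-z to sfr-miR-2755-3p of 0.000106, which rests on a count of 0 with 1 added. In pupae, the day 4 male, a shallow library, stood apart with 111.8 CPM of miR-2755-y and a ratio of miR-2755-y to sfr-miR-2755-3p of 0.00762, and the day 7 male, also shallow, with a ratio of sfr-miR-2766-3p to sfr-miR-2766-5p of 33.4. In adults, the day 4 female stood apart with a ratio of miR-2755-y to sfr-miR-2755-3p of 0.0243, and the day 4 male with 107 CPM of miR-2766-x.

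The egg and the prepupa, with 1 library each, enter no test, and the members counted there more than 3 times are given as values. The egg had 5979.6 CPM of sfr-miR-2755-3p, 1335 CPM of miR-2755-y, 5706 CPM of sfr-miR-2766-3p, 329.8 CPM of miR-2766-y and 39.9 CPM of sfr-miR-2766-5p. The prepupa had 13409 CPM of sfr-miR-2755-3p, 81.5 CPM of miR-2755-y, 1.02 CPM of miR-2755-z and 2.04 CPM of sfr-miR-2755-5p. It had 6987 CPM of sfr-miR-2766-3p, 60.1 CPM of miR-2766-y, 715 CPM of sfr-miR-2766-5p and 7.97 CPM of miR-2766-x.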

How the results depend on the processing

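Each life stage rests on 4 to 6 libraries of unlike age and sex, the egg and prepupa on 1 each, and the larval libraries are shallow, which limits the rows with few counts most. The causes of the changes below were not tested.

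Of the 6 tested rows, 3 were called in pupae against larvae as reported. With library totals 5 of 6 were called (38.1% of all rows), where sfr-miR-2755-3p had -0.63 and sfr-miR-2766-3p -1.11, and with no filter 0 of 8 (20.2% of 658 rows). With 3p rows summed 0 of 4 were called (35.8% of all rows), but that setting holds no separate miR-2755-y or miR-2766-y and so bears only on sfr-miR-2766-5p (adjusted p = 0.0501). In adults against pupae 2 of 6 were called as reported. With library totals (sfr-miR-2755-3p 0.68) and with the DESeq2 Wald test (sfr-miR-2755-3p 0.61) 4 of 6 were, beside 24.7% and 32.5% of all rows. With no filter 1 of 8 was (11.2% of all rows), with 3p rows summed 1 of 4 (23.6%), and once the shallow male pupae, of days 4 and 7, were dropped 1 of 6 (15.8%). In adults against larvae 1 was called with DESeq2's size factors or Wald test (33.8% and 41.6% of all rows). In the sex difference between adults and pupae 2 were called by the DESeq2 Wald test (sfr-miR-2755-3p -0.59) and 1 with no filter, beside 40 and 30 rows in all. In pupal day 7 against day 4 (sfr-miR-2766-3p 1.25) and adult day 1 against pupal day 7, 1 was called by the Wald test, beside 49 and 75 rows in all. Leaving out a library gave 1 to 3 in pupae against larvae (beside 99 to 123 rows in all) and in adults against pupae (29 to 91). It gave 0 to 1 in adults against larvae (72 to 117) and in the first 3 age steps (0 to 71, 0 to 12 and 0 to 70). In the sex difference (0 to 58) and the larval trend (36 to 74) it gave 0 to 2. The full fits tested 320 rows between stages, 344 by sex and age and 234 along the instars.

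Signs turned as follows. For sfr-miR-2755-3p the difference between females and males was -0.14 by either DESeq2 alternative (its size factors in edgeR, or the Wald test), -0.19 with library totals, -0.0258 with no filter, -0.40 once those male pupae were dropped and -0.0442 with no replicate block (no age term), where 5 rows of all were called in place of 2. Its change was -0.0136 in pupal day 4 against day 1 with library totals and -0.0138 in adult day 1 against pupal day 7 without those male pupae. For sfr-miR-2766-3p the sex difference between adults and pupae was 0.15 with DESeq2's size factors and Wald test and 0.48 with library totals. The ratio of miR-2755-z to sfr-miR-2755-3p in adults against larvae was 0.14 with 0.5 counts added.

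Over all rows, the DESeq2 Wald test called 21 between females and males, 40 in the sex difference, 85, 49, 75 and 13 in the 4 age steps and 105 in the larval trend. DESeq2's size factors called 32 and 0, and library totals 38 and 0, in the last 2 age steps, and library totals 39 in the first. No filter gave 16, 30 and 30 for females against males, the sex difference and pupal day 4 against day 1. Unmerged rows gave 4 for females against males and 0 for adult day 4 against day 1, and summed 3p rows 1 for the sex difference. Without the male pupae of days 4 and 7, 0 were called in females against males, the sex difference, pupal day 4 against day 1 and both later steps with adults.

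Leaving out each library in turn, all rows called ranged over 29 to 91 in adults against pupae, 1 to 14 between sexes, 0 to 58 in the sex difference, 0 to 71, 0 to 12, 0 to 70 and 0 to 9 in the age steps and 36 to 74 in the larval trend. sfr-miR-2755-3p ranged from -0.24 to 0.13 between sexes, -1.19 to -0.52 in the sex difference, and -0.0761 to 0.42, -0.20 to 0.50 and -0.66 to 0.14 in pupal day 4 against 1, pupal day 7 against 4 and adult day 4 against 1. sfr-miR-2766-3p ranged from -0.36 to 0.36 in the sex difference, -1.20 to -0.59 and 0.99 to 1.34 in the pupal steps and -0.50 to 0.00930 in the larval trend. Between stages, sfr-miR-2755-3p ranged from -0.40 to -0.17 in pupae against larvae, 0.40 to 0.67 in adults against pupae and 0.0904 to 0.36 in adults against larvae, and sfr-miR-2766-3p from -0.91 to -0.49, 0.17 to 0.49 and -0.61 to -0.14. The larval slope of sfr-miR-2755-3p ranged from -0.20 to -0.0129. In pupae against larvae the log2 ratio ranged from -0.10 to 0.40 for miR-2766 3p to 5p, -0.0345 to 0.41 for sfr-miR-2766-3p to sfr-miR-14-3p and -0.0747 to 0.54 for miR-2766-x to sfr-miR-2766-5p, and in adults against pupae from -0.38 to 0.14 for sfr-miR-2766-3p to sfr-miR-2755-3p.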
